A study of Mus musculus with 7 samples.

Results

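Neutrophils leave the bone marrow, circulate and enter tissue with the help of surface molecules that bind vessel walls and matrix, and 9 genes of this kind are described here. They are the integrin α chains Itgam, Itgal, Itgax and Itga4, the β chains Itgb2 and Itgb2l, the selectin ligand Selplg, the hyaluronan receptor Cd44 and the integrin ligand Icam1. They were chosen by name from the 16505 genes with a unique molecular identifier (UMI) in any library, and all 9 had UMIs, although Itgax had no row in the table of bone marrow run 1 and was counted as 0 there. Single-cell RNA sequencing had been done on droplets of the 10X Genomics system, in which a UMI count is a count of captured molecules.

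Live cells of male C57BL/6J mice had been sorted as neutrophils, positive for CD11b and Ly6G and negative for propidium iodide. CD11b is the protein of Itgam, so cells without it on their surface could not enter any group. Healthy untreated mice gave bone marrow, blood and spleen in each of 2 runs, at 6 weeks of age in run 1 and 8 weeks in run 2 by the study's methods, so that age and run cannot be told apart. A further library held 5 conditions, with treated mice aged 8 weeks: blood of healthy mice, blood and ankle joint lavage of mice given K/BxN serum, which causes arthritis, taken on day 7, and lavage of the lung or the peritoneum taken 3 hours after 25 ng of IL-1β was given into the nose or the abdomen. Each library or condition was a pool of 3 mice, and the same mice gave all 3 tissues within a run. A p-value between tissues measures the spread left among 2 pools per tissue once the run is taken off. For classes of cells within a library, described below, it measures how the class difference varies between libraries.

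In healthy tissues, neutrophils were taken as cells with at least 3% of UMIs from S100a8 and S100a9, the abundant calcium-binding proteins of these cells. This kept 1306 and 3672 cells of blood (runs 1 and 2), 1206 and 3426 of bone marrow, and 1135 and 2010 of spleen, with 1360064 to 9104133 UMIs per library. All 9 of 9 further neutrophil markers had UMIs in every library and condition. Kept cells also held UMIs of other cell types, with summed erythroid markers at 252 to 30340 CPM (UMIs per 1000000 UMIs of the library), highest in blood run 2, and summed B cell markers at 39.3 to 2553 CPM, highest in spleen run 2. Summed monocyte and macrophage markers were at 1383 and 1015 CPM in bone marrow (runs 1 and 2), 626 and 261 CPM in blood and 1157 and 351 CPM in spleen. Summed platelet markers were at 3.061 and 3.515 CPM in bone marrow, 97.8 and 157.7 CPM in blood and 0 and 2.556 CPM in spleen. The cells left out held far more B cell markers in spleen run 2 and erythroid markers in blood run 2, so the sorted cells were not neutrophils alone. With kept cells limited to at most 0.5% of UMIs from markers of other cell types, which 3595 of the 3672 cells of blood run 2 exceeded, 6 of the 9 genes and 1236 of all genes passed between blood and bone marrow (6 and 1693 without the limit). Between spleen and bone marrow 4 of the 9 and 311 of all genes passed (4 and 215 without it). Doublets were not searched for here with a caller. Doublets had been gated out by scatter in the sort, and barcodes with mixed hashtags had been dropped by the authors from the inflammation library. Cells with very many genes, which the authors left out as possible doublets, were kept here except under the study's cell limits. Any pair of libraries shared 0 to 36 cell barcodes. The inflammation library gave 509 cells of healthy blood, 814 of arthritic blood, 2857 of the joint, 380 of the lung and 292 of the peritoneum that the authors had assigned to neutrophils.

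As background, an integrin is a pair of an α and a β chain. Itgb2 (CD18) pairs with Itgal to form LFA-1, with Itgam to form Mac-1 and with Itgax to form CD11c/CD18, and LFA-1 and Mac-1 bind ICAM-1, the product of Icam1, on vessel walls. Itga4 pairs with other β chains and binds VCAM-1. Selplg encodes PSGL-1, on which neutrophils roll over selectins before integrins arrest them, and CD44 binds hyaluronan and can also act as a selectin ligand. Itgb2l encodes a protein related to the β chain Itgb2.

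In the GENCODE annotation of GRCm38, the assembly also called mm10, the α chains Itgal (chr7:127296260-127335138), Itgam (chr7:128062640-128118491) and Itgax (chr7:128129547-128150657) lay on the plus strand of the same chromosome, with 11055 bases between Itgam and Itgax. Itga4 lay at chr2:79255426-79333123 (plus), Cd44 at chr2:102811141-102901665 (minus) and Selplg at chr5:113818536-113832644 (minus). Icam1 lay at chr9:21015985-21028817 (plus), Itgb2 at chr10:77530252-77565708 (plus) and Itgb2l at chr16:96422288-96443619 (minus).

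RefSeq windows of 300 bases around the gene start, from 250 before to 50 after it in GRCm38.p6, were held for 6 of the 9 genes. They were searched on both strands for 3 short motifs, GAGGAA (the core bound by PU.1), TGTGGT (the core bound by RUNX factors) and GGAAATTCC (a core bound by NF-κB), none of which overlapped another match in the 3 windows shown. Of 32851 windows of the same length, 28.3% held the first motif, 16.8% the second and 0.317% the third. The windows of Icam1, Itgb2l and Itgam are shown because Icam1 had the highest ratios to healthy blood after IL-1β, Itgb2l was the member lower in blood than in bone marrow, and Itgam is the chain used for the sort, with matches in capitals and the strand of the gene printed from 5′ to 3′.
Icam1, chr9:21015690-21015989, plus strand: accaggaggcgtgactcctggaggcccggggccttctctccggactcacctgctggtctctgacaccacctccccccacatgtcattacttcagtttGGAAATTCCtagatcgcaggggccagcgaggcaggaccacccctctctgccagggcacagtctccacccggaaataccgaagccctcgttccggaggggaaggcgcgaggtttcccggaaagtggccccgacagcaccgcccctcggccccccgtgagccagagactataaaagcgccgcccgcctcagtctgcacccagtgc
Itgb2l, chr16:96443565-96443864, minus strand: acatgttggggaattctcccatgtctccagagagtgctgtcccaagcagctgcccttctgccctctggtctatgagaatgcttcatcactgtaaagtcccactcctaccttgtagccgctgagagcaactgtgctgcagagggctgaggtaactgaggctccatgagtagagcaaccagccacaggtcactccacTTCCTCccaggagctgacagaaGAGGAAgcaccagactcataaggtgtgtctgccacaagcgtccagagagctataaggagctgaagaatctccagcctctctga
Itgam, chr7:128062390-128062689, plus strand: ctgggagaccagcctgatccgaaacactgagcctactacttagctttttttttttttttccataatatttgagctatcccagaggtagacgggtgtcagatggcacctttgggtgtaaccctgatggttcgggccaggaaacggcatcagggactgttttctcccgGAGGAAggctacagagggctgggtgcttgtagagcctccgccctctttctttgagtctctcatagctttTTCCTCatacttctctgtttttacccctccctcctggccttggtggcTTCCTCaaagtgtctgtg
Positions count from the RefSeq start, which for Icam1 lies upstream of the GENCODE start given above and for Itgb2l a few bases downstream of it. The Icam1 match began 153 bases before the RefSeq start. The Itgb2l matches began 55 and 33 bases before it, and those of Itgam 84 and 15 bases before and at base 33 after it. A match describes letters and does not show that a factor was bound.

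Itga4, Itgal, Selplg and Cd44 took a larger share of the UMIs in blood than in bone marrow neutrophils, and Itgb2l a smaller one. By edgeR's quasi-likelihood test with the run as a block, 6 of 9 passed a false discovery rate (FDR) of 0.05 over 7809 genes, where 21.7% of all genes tested passed (11.7% higher, 9.94% lower). Itgax and Icam1 met the low-count filter through blood and spleen alone, so their direction was set beforehand and both are set aside. Icam1 did not pass and Itgax did, which leaves 5 genes that passed: Itga4, Itgal, Selplg, Cd44 and Itgb2l. Counts of the 9 genes given below for other fits include Itgax where it passed.

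Among the α chains, Itga4 was at 83.8 and 107 CPM in blood (runs 1 and 2), 7.30 and 9.67 CPM in bone marrow, and 27.5 and 113 CPM in spleen. Both blood values were above both bone marrow values, with a log2 fold change of 3.22 ± 0.36 (SE, FDR 0.00314, edgeR). Itgal was at 313 and 364 CPM in blood, 86.4 and 87.5 CPM in bone marrow, and 152 and 337 CPM in spleen, and was higher in blood than in bone marrow by 1.66 ± 0.24 on the log2 scale (FDR 0.00558, edgeR). Itgax was at 22.1 and 21.8 CPM in blood and 7.44 and 16.9 CPM in spleen, whereas bone marrow held 0 UMIs in run 1 and 7 UMIs in run 2 (0.769 CPM). Its fitted log2 fold change depends on these few bone marrow molecules, at 8.57 without bone marrow replicate 2 and 4.58 without bone marrow replicate 1, and is not used as a measure of size.

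The remaining α chain, Itgam, was at 319 and 215 CPM in blood, 272 and 278 CPM in bone marrow, and 295 and 220 CPM in spleen. The groups overlapped, and blood differed from bone marrow by -0.38 ± 0.27 on the log2 scale (FDR 0.353, edgeR). The tables of run 2 and of the inflammation library held a second row under the same symbol, marked Itgam.1, with 60.6 CPM in blood, 13.1 CPM in bone marrow and 59.8 CPM in spleen of run 2, which the tables of run 1 did not list. With both rows added, the difference between blood and bone marrow was -0.22 (FDR 0.543, edgeR).

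Of the β chains, Itgb2 was at 440 and 364 CPM in blood, 310 and 307 CPM in bone marrow, and 347 and 327 CPM in spleen. Its blood values were above its bone marrow values in CPM, but after scaling by edgeR's TMM factors the log2 difference was 0.08 ± 0.23 (FDR 0.825). Itgb2l was at 104 and 14.7 CPM in blood, 215 and 201 CPM in bone marrow, and 166 and 37.3 CPM in spleen. It was lower in blood than in bone marrow, with a log2 fold change of -2.81 ± 0.67 (FDR 0.0269, edgeR), and blood run 2 lay far below blood run 1.

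Selplg was at 1071 and 1239 CPM in blood, 202 and 289 CPM in bone marrow, and 447 and 1180 CPM in spleen, a rise from bone marrow to blood of 1.98 ± 0.26 (log2, FDR 0.0048, edgeR). Cd44 was at 649 and 797 CPM in blood, 252 and 280 CPM in bone marrow, and 344 and 819 CPM in spleen, a rise of 1.15 ± 0.24 (log2, FDR 0.0188, edgeR). Both genes had blood values apart from those of bone marrow. Icam1 was scarce in healthy cells, at 6.62 and 3.73 CPM in blood, 0.706 and 0.549 CPM in bone marrow, and 4.47 and 6.65 CPM in spleen. Its difference between blood and bone marrow did not pass (2.66 ± 1.26, FDR 0.176, edgeR) and has the limit of the filter given above. The cells left out as no neutrophils held more of it in 5 of 6 libraries (3.26 to 68.7 CPM over all 6). Left-out cells also held more Itga4 than kept cells in 4 of 6 libraries, at 28.3 and 78.8 CPM in bone marrow, 187 CPM in blood run 1 and 153 CPM in spleen run 1. They held more Itgax in 3 of 6, at 5.99 CPM in bone marrow run 2, 55.9 CPM in blood run 1 and 58.1 CPM in spleen run 1. For Selplg this was so in bone marrow run 1 (393.5 CPM) and spleen run 1 (850.8 CPM) alone, and for Itgal in spleen run 1 alone (195.5 CPM).

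**Figure D1:**
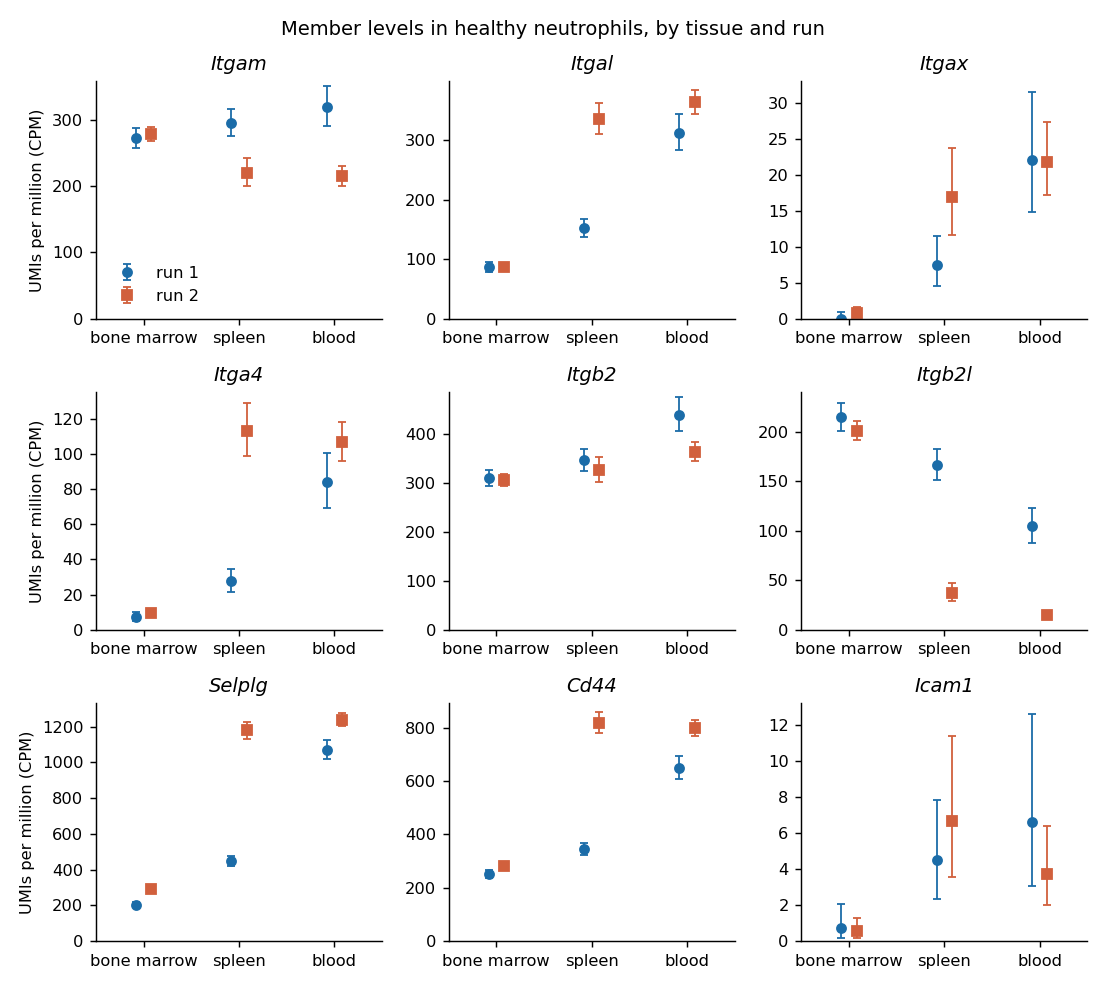
Levels of the 9 genes (y axis, CPM) in neutrophils of bone marrow, spleen and blood (x axis), with run 1 as circles and run 2 as squares; bars are 95% exact Poisson intervals and cover counting error only. Itga4, Itgal, Itgax, Selplg and Cd44 lie higher in both blood libraries than in both bone marrow libraries, Itgb2l lies lower, and spleen of run 1 lies nearer to bone marrow than spleen of run 2 for each of these genes.

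Between spleen and bone marrow 4 of the 9 genes passed, where 2.75% of all genes did (2.24% higher, 0.512% lower). They were Itgax, with the limit given above, and Itga4 (log2 fold change 2.66 ± 0.36), Itgal (1.23 ± 0.23) and Selplg (1.44 ± 0.26), with FDR values of 0.0209, 0.0446 and 0.0364 by edgeR. Itga4 was at 1.97 without spleen replicate 2 and 3.14 without spleen replicate 1, and the fitted value of Itgax ranged from 3.78 without bone marrow replicate 1 to 7.77 without bone marrow replicate 2. DESeq2 called 6, with Cd44 (FDR 0.0384) and Itgb2l (FDR 0.0443) added, and 270 of all genes against 215 by edgeR. Itgal and Selplg did not pass under the study's cell limits (FDR 0.0983 and 0.0668, edgeR) or with library totals alone (0.0788 and 0.0583). Between blood and spleen, 0 of the 9 passed by edgeR and by DESeq2, 0 had an unadjusted p under 0.05, and 0.0512% of all genes passed. The runs of spleen were unlike: 44% of its neutrophils in run 1 and 3.13% in run 2 were high in granule genes, as described next.

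The counts of calls depended on single libraries. Without blood replicate 1 or blood replicate 2, 0 of the 9 genes passed between blood and bone marrow and 0 between spleen and bone marrow, in fits where 57 and 0 of all genes passed in the first comparison and 0 and 0 in the second. Without bone marrow replicate 2 the counts were 5 (Cd44, at 1.00, had an FDR of 0.142 by edgeR) and 2, where 996 and 234 of all genes passed. Without spleen replicate 2 they were 6 and 1, where 2411 and 57 of all genes passed. Over these fits the log2 fold change between blood and bone marrow ranged from 2.93 to 3.53 for Itga4 and from -4.05 (without bone marrow replicate 1) to -1.33 (without bone marrow replicate 2) for Itgb2l. Between blood and spleen, Itgb2l passed without bone marrow replicate 1 (-1.11, FDR 0.0299) or bone marrow replicate 2 (-1.11, FDR 0.0303, edgeR). Without the run as a block, which sets aside the pairing of tissues within a run, 1 of 9 (Itgax) and 164 of all genes passed between blood and bone marrow, and 0 and 0 between spleen and bone marrow. Over all deposited cells, other cell types included, 0 of the 9 and 0 of all genes passed in either comparison.

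Young neutrophils carry RNA of the secondary granule proteins, and tissues differ in their share of such cells. Cells with at least 2% of UMIs from Camp, Ngp and Ltf were called high-granule and the others low-granule. This is a range of a score and no cell type, and 970 of 12755 cells (7.6%) held 1 to 4%. High-granule cells made up 62.6% and 46.1% of bone marrow neutrophils, 44% and 3.13% of spleen and 11% and 0.926% of blood (runs 1 and 2), so that blood run 2 gave 34 such cells. In bone marrow, a high-granule cell held a median of 3620 and 3138 UMIs and a low-granule cell 1743 and 1567.

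Within libraries, Selplg, Itgal, Itga4 and Cd44 took a larger share of the UMIs of low-granule than of high-granule cells, and Itgb2l and Itgam a smaller one. With the library as a block, 6 of the 7 genes that passed the filter on low counts were called, where 44.8% of 5491 genes were called (24.1% higher, 20.7% lower). Icam1 and Itgax were too low for that filter, Itgax with 0 to 2.01 CPM in high-granule cells, 0 and 1.90 CPM in low-granule cells of bone marrow, and 19.3 to 29.5 CPM in those of spleen and blood.

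Selplg was at 117 to 178 CPM in the 6 high-granule sums and 514 to 1385 CPM in the 6 low-granule sums, a difference of 2.39 ± 0.15 (log2, FDR 8.19e-08, edgeR). Itgal went from 56.5 to 117 CPM in high-granule cells to 131 to 387 CPM in low-granule cells (1.46 ± 0.18, FDR 2.45e-05, edgeR), and Cd44 from 211 to 356 CPM to 354 to 904 CPM (0.96 ± 0.15, FDR 0.00015, edgeR). For Selplg and Itgal the 6 low-granule sums lay above all 6 high-granule sums, and for Cd44 the ranges overlapped across libraries but low-granule cells were higher within 6 of 6 libraries.

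Itgb2l was the reverse, at 212 to 362 CPM in high-granule and 6.84 to 101 CPM in low-granule cells, with no overlap (-3.30 ± 0.50, FDR 0.000118, edgeR, and -3.91 without bone marrow replicate 2). Itgam was at 262 to 461 CPM in high-granule and 200 to 271 CPM in low-granule cells, ranges that overlapped, and was lower in low-granule cells of 6 of 6 libraries (-0.80 ± 0.15, FDR 0.000598, edgeR, and -0.71 with both Itgam rows added). Itgb2 was at 262 to 414 CPM in high-granule and 333 to 449 CPM in low-granule cells, and its direction depended on the scaling (-0.05 with TMM factors, FDR 0.789, and 0.12 with library totals alone, FDR 0.562, edgeR). With library totals alone in place of TMM, the median log2 fold change of all genes was 0.14 here and 0.26 between blood and bone marrow, and 6 of the members were called in each, where 2285 and 1461 of all genes were.

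**Figure D2:**
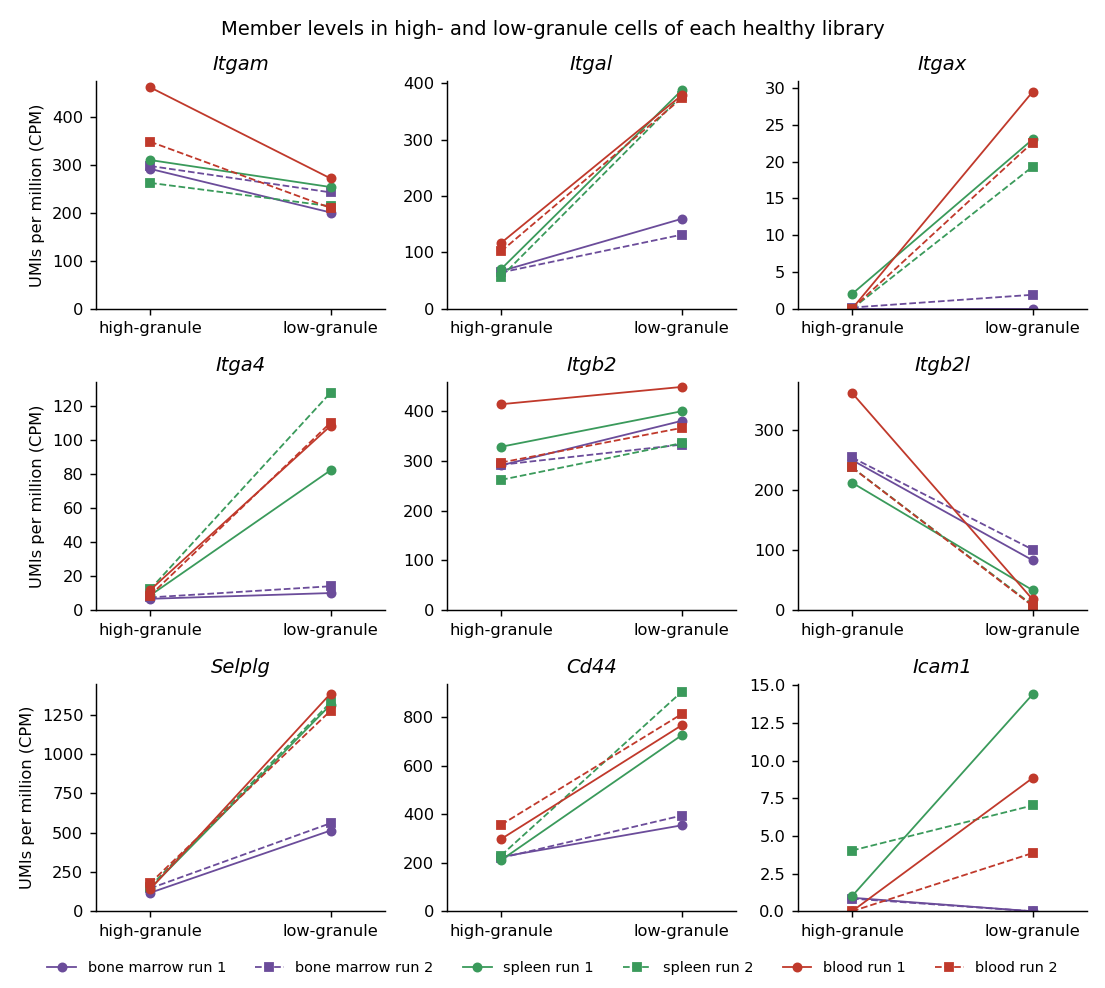
Levels of the 9 genes (y axis, CPM) in high-granule and low-granule neutrophils (x axis), joined for each healthy library; colours mark the tissue, solid lines run 1 and dashed lines run 2. Itgb2l and Itgam fall in every library, Selplg, Itgal, Cd44 and Itga4 rise in every library, and the Itga4 lines of bone marrow end at 9.96 and 13.9 CPM, below those of blood and spleen.

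Itga4 rose from 6.58 and 7.39 CPM in high-granule cells to 9.96 and 13.9 CPM in low-granule cells of bone marrow (runs 1 and 2). In blood the same step went from 11.7 and 8.49 CPM to 108 and 110 CPM, and in spleen from 8.53 and 12.1 CPM to 82.1 and 128 CPM. Over all libraries low-granule cells were higher by 1.87 ± 0.33 (log2, FDR 0.000379, edgeR), and the step itself differed between tissues (joint test of the interaction, FDR 0.0189, edgeR). The step was larger than in bone marrow by 2.06 ± 0.47 in spleen (FDR 0.014, edgeR), where the high-granule sums held 17 and 3 UMIs. In blood it was larger by 1.99 ± 0.62 (FDR 0.0962, edgeR), where the high-granule sums held 4 and 1 UMIs.

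The Itgb2l step differed between tissues as well (FDR 3.22e-05, edgeR), being steeper than in bone marrow by -3.69 ± 0.42 in blood and -2.58 ± 0.40 in spleen. Low-granule cells held 83 and 101 CPM of Itgb2l in bone marrow, 17.7 and 6.84 CPM in blood and 33.1 and 8.20 CPM in spleen. Of the 7 genes tested, 2 had such an interaction (Itga4 and Itgb2l), against 4.9% of all genes. Taken by tissue, Itgb2l passed for blood against bone marrow (2.84% of all genes, 2.37% lower), and for spleen against bone marrow Itga4 and Itgal were higher and Itgb2l lower, where 4.75% of all genes passed (2.02% higher, 2.73% lower). For the joint test, which 269 of all genes passed, DESeq2 called 1 of the 7 (Itgb2l, 139 of all genes) and a class limit at 4% gave 1 (256 of all genes). Leaving out either bone marrow or either spleen library also gave 1 (73 to 218 of all genes). Leaving out blood replicate 2 gave 3 (287 of all genes), library totals alone 5 (390) and no block 0 (0).

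Low-granule cells were also compared between tissues, which holds the class but not the finer order of maturation within it. Itgax and Icam1 met the low-count filter through blood and spleen alone, so their calls had to differ and are set aside. Of the 7 other genes, 5 passed between blood and bone marrow, where 15.2% of 6051 genes did (8.2% higher, 7.04% lower). Itga4 (2.76 ± 0.24, FDR 0.000164), Itgal (1.01 ± 0.18, FDR 0.00441), Selplg (0.93 ± 0.19, FDR 0.00948) and Cd44 (0.71 ± 0.19, FDR 0.0297) were higher in blood, and Itgb2l was lower (-3.58 ± 0.46, FDR 0.000938; all log2, edgeR). Icam1 had 9 and 13 UMIs in blood and 0 in both bone marrow libraries.

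Itgam (-0.29, FDR 0.406) and Itgb2 (-0.18, FDR 0.548, edgeR) did not pass, and both turned positive with library totals alone (0.08 and 0.18), where the median of all genes was 0.41 in place of 0.05. Of all genes, 641 passed without blood replicate 1, 866 without bone marrow replicate 1, 300 without blood replicate 2, 775 without bone marrow replicate 2 and 0 without the block, against 922. Cd44 did not pass when any of these 4 libraries was left out (FDR 0.16 to 0.272, edgeR). Selplg did not pass without blood replicate 1, bone marrow replicate 1 or blood replicate 2 (FDR 0.0656, 0.187 and 0.0919), nor Itgal without blood replicate 2 (FDR 0.115, edgeR), and 0 of the 9 passed without the block. The Itgb2l value was -2.38 without bone marrow replicate 2 and -4.44 without bone marrow replicate 1. The fitted value of Itgax was 8.36 without bone marrow replicate 2 and 3.15 without bone marrow replicate 1.

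In the inflammation library each condition was 1 pool, so ratios are given with an exact 95% interval on the split of the counts, which covers counting error only, and no test was made. The 4 inflamed conditions were compared with the same healthy blood. Ratios are of CPM, and a ratio of at least 2 or at most 0.5 is called past 2-fold. Scaling by TMM factors in place of totals raised the log2 ratios to healthy blood by 0.43 (arthritic blood), 0.45 (joint), 0.95 (lung) and 0.97 (peritoneum), so both ratios are given.

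Icam1 had the highest ratios to healthy blood of the 9 genes, in the lung and the peritoneum. It was at 18.7 CPM in healthy blood, 9.28 CPM in arthritic blood, 16.5 CPM in the joint, 189 CPM in the lung and 429 CPM in the peritoneum. The ratio to healthy blood was 10.1 (6.49 to 16.7) in the lung and 23.0 (14.8 to 37.5) in the peritoneum, or 19.6 and 44.9 with TMM scaling. In the joint it was 0.885 (0.561 to 1.47), an interval that includes 1, and 1.21 with TMM scaling. For shares of cells, each cell was thinned to 1000 UMIs, which left out 155, 140, 123, 94 and 61 shallower cells of healthy blood, arthritic blood, joint, lung and peritoneum and kept 354, 674, 2734, 286 and 231. Of the cells kept, 1.98%, 0.742%, 1.68%, 14.3% and 31.6% in the same order held an Icam1 UMI. Over all cells before thinning the shares were 3.93%, 2.7%, 4.73%, 28.2% and 48.3%. All conditions shared the same droplet library and thus its free RNA. The thinned share was lowest in arthritic blood, at 0.742% (5 of 674 cells, interval of counting error 0.241 to 1.72%). How much of the share in any condition came from free RNA was not tested.

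Itga4 had the lowest ratios in the joint, the lung and the peritoneum. It was at 437 CPM in healthy blood, 234 CPM in arthritic blood, 63.5 CPM in the joint, 43.9 CPM in the lung and 53.0 CPM in the peritoneum. The ratios were 0.536 (0.476 to 0.604) in arthritic blood, 0.146 (0.129 to 0.164) in the joint, 0.101 (0.0752 to 0.132) in the lung and 0.122 (0.0890 to 0.163) in the peritoneum, and 0.721, 0.199, 0.194 and 0.237 in the same order with TMM scaling. The 3 tissue sites were thus below both blood conditions on either scale. The thinned share of cells with an Itga4 UMI was 34.2% and 19.9% in healthy and arthritic blood and 3.15% to 5.85% at the sites.

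Cd44 was higher at the 3 tissue sites. It was at 1336 CPM in healthy blood, 1161 CPM in arthritic blood, 2489 CPM in the joint, 1716 CPM in the lung and 2657 CPM in the peritoneum. The ratios at the sites were 1.86 (1.77 to 1.96), 1.28 (1.20 to 1.37) and 1.99 (1.87 to 2.12), and 2.55, 2.48 and 3.89 with TMM scaling, so that it was higher on both scales and past 2-fold on the TMM scale alone.

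Itgal and Selplg were below healthy blood at the 3 sites on totals, and with TMM scaling too except in the peritoneum. There Itgal was above healthy blood and Selplg close to it on the TMM scale. Itgal was at 742 CPM in healthy blood, 513 CPM in arthritic blood, 360 CPM in the joint, 165 CPM in the lung and 417 CPM in the peritoneum. Its ratio in the lung was 0.222 (0.191 to 0.258) and 0.429 with TMM scaling, whereas in the peritoneum it was 0.562 (0.497 to 0.634) and 1.10 with TMM scaling. Selplg was at 1624, 1411, 929, 663 and 784 CPM in the same order, with ratios of 0.572 (0.544 to 0.602), 0.408 (0.376 to 0.443) and 0.483 (0.442 to 0.526) at the joint, lung and peritoneum and 0.783, 0.788 and 0.943 with TMM scaling.

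The Mac-1 chains had no ratio past 2-fold. Itgam was at 582, 470, 680, 504 and 412 CPM and Itgb2 at 641, 535, 556, 328 and 394 CPM in healthy blood, arthritic blood, joint, lung and peritoneum. The ratios of Itgam were 0.807 to 1.17 outside the peritoneum (0.707), and 1.09 to 1.67 with TMM scaling, so its direction flips with the scaling in arthritic blood, lung and peritoneum. Those of Itgb2 were 0.511 to 0.868, and 0.987 to 1.20 with TMM scaling, where the direction flips everywhere but the lung. With both Itgam rows added the joint ratio fell from 1.17 to 1.00, and the ratios in arthritic blood, lung and peritoneum were 0.764, 0.719 and 0.643. Itgax was at 80.9, 39.0, 95.2, 57.5 and 39.2 CPM, with ratios of 0.482 (0.360 to 0.645) in arthritic blood, 1.18 (0.949 to 1.47) in the joint, 0.711 (0.517 to 0.975) in the lung and 0.485 (0.322 to 0.718) in the peritoneum. With TMM scaling these were 0.648, 1.61, 1.37 and 0.948, none past 2-fold, and the lung changed direction.

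Itgb2l was scarce, at 6, 28, 41, 34 and 7 UMIs or 5.33, 10.4, 3.98, 25.7 and 7.43 CPM. The lung value was 4.82 times that of healthy blood (2.00 to 14.1), or 9.32 with TMM scaling, and 3.47 times that of the peritoneum (1.51 to 9.26). No cell of the inflammation library was high-granule by the limit used above.

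**Figure D3:**
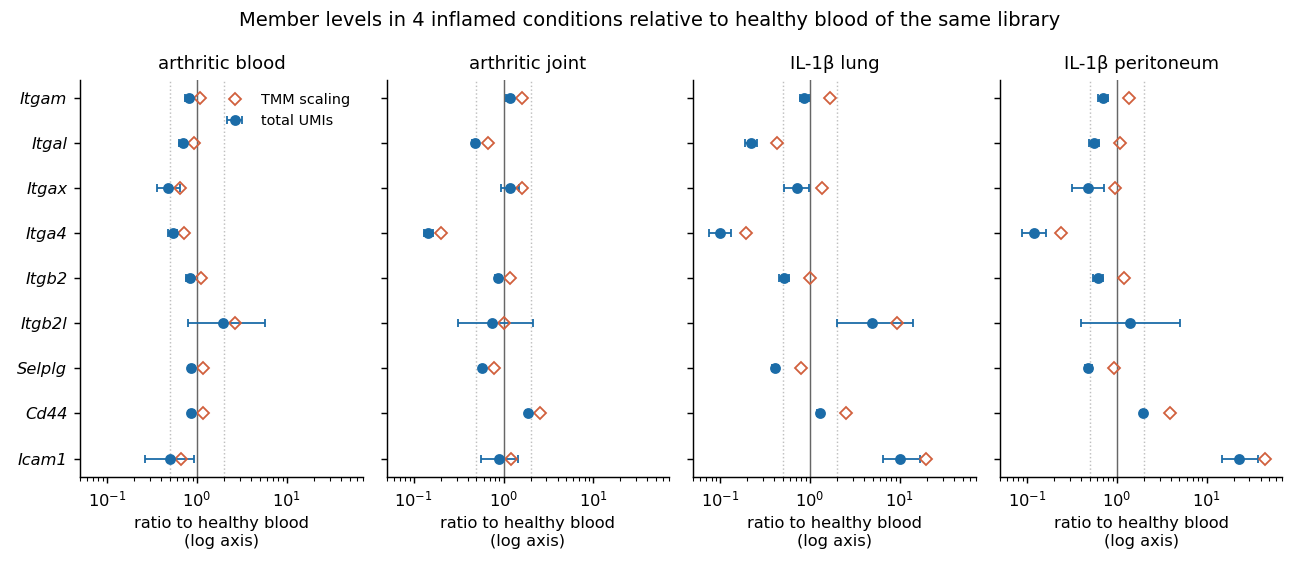
Ratio of each gene's CPM to healthy blood (x axis, log scale) in 4 inflamed conditions; filled circles use total UMIs with 95% exact intervals of counting error, open diamonds TMM scaling, and dotted lines mark 2-fold either way. Icam1 lies past 2-fold in lung and peritoneum (10.1 and 23.0 on totals), Itga4 below 0.5 at the 3 tissue sites, and Itgal, Selplg, Itgam and Itgb2 in the peritoneum lie below 1 on totals and near or above it on the TMM scale.

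Counted together, 2 of 9 genes were past 2-fold lower in arthritic blood (Itgax and Icam1, 11.3% of all genes) and 0 higher (1.21%). In the joint 2 were lower (25.9% of all genes) and 0 higher (8.58%). In the lung 3 were lower (49.3%) and 2 higher (10.9%), and in the peritoneum, where Itgb2l had too few UMIs, 3 of 8 were lower (51.8%) and 1 higher (10.2%). With TMM scaling the counts higher were 1 (3.82% of all genes), 1 (14.2%), 3 (22.4%) and 2 (21.5%), and those lower were 0 (3.8%), 1 (11.4%), 2 (21.7%) and 1 (22.5%).

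Joint and blood of arthritic mice were compared directly, where TMM scaling shifted the log2 ratios by 0.03 and gave the same calls. Itgax (2.44, 1.99 to 3.02) and Cd44 (2.14, 2.07 to 2.23) were past 2-fold higher in the joint, where 14.7% of all genes were, and Itga4 (0.272, 0.243 to 0.304) and Itgb2l (0.383, 0.231 to 0.643) lower, where 9.34% were (15.2% and 8.94% with TMM scaling). Itgam was higher by 1.45 (1.36 to 1.54), or by 1.31 with both Itgam rows added, and Itgal lower by a ratio of 0.701 (0.659 to 0.746). Between the IL-1β sites, Itgb2l was higher in the lung, and Itgal (0.396, 0.334 to 0.468) and Icam1 (0.442, 0.376 to 0.518) were lower there than in the peritoneum, against 9.72% of all genes higher and 8.6% lower (9.51% and 8.94% with TMM scaling).

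Shares within a pair of genes do not depend on the scaling of a library, although UMIs of different genes are not captured alike and a share does not give the ratio of proteins. Of the UMIs of Itgal and Itgam together, Itgal made up 24.1% (run 1) and 23.9% (run 2) for bone marrow cells. The share was 49.5% (run 1) and 62.9% (run 2) for blood cells and 34.0% (run 1) and 60.5% (run 2) for spleen cells. In the inflammation library it made up 56.0% in healthy blood (95% exact binomial interval 53.5 to 58.6), 52.2% in arthritic blood, 34.6% in the joint (33.7 to 35.5), 24.7% in the lung (21.9 to 27.6) and 50.3% in the peritoneum (46.8 to 53.9). With both Itgam rows added these shares were 23.1% to 24.1% in bone marrow, 49.5% and 56.9% in blood, and 49.4%, 46.9%, 32.0%, 23.1% and 46.0% in the inflamed order, with lung and joint again the lowest of the 5 conditions.

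Of the UMIs of Itgb2l and Itgb2 together, Itgb2l made up 40.9% (run 1) and 39.6% (run 2) for bone marrow cells, 32.3% (run 1) and 10.3% (run 2) for spleen cells, and 19.2% (run 1) and 3.87% (run 2) for blood cells. In the inflammation library it made up 0.825% in healthy blood, 1.91% in arthritic blood, 0.711% in the joint, 1.85% in the peritoneum and 7.28% in the lung (5.09 to 10.0). The lung interval lay above those of the other 4 conditions. How reads of related chains were divided between genes was not examined.

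**Figure D4:**
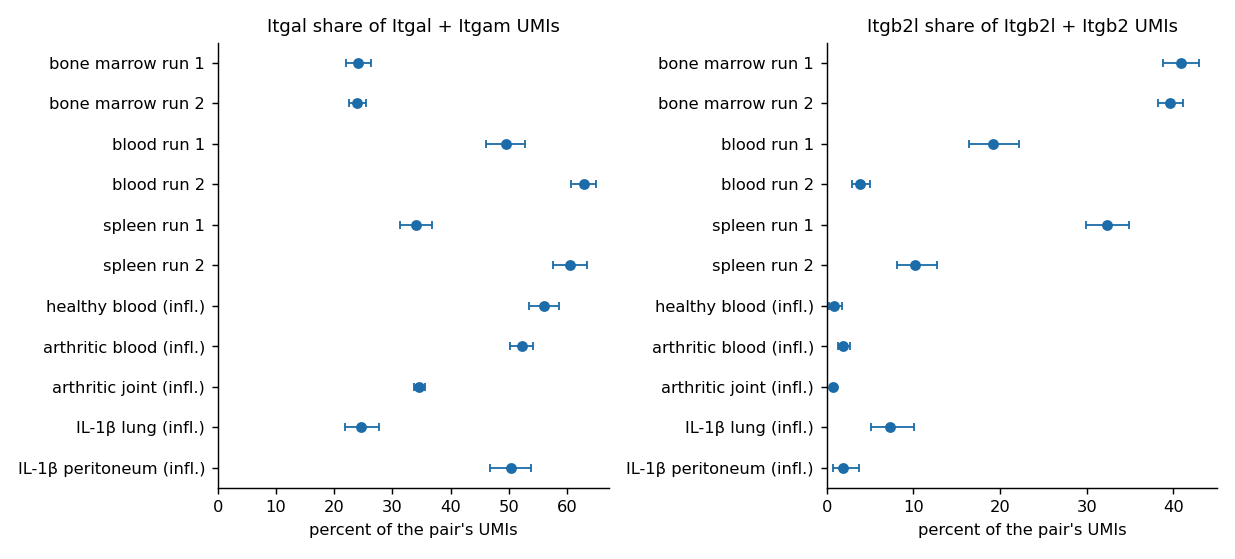
Share of a gene pair's UMIs (x axis, percent) taken by Itgal against Itgam (left) and by Itgb2l against Itgb2 (right) in 6 healthy libraries and 5 conditions of the inflammation library (y axis), with 95% exact binomial intervals of counting error. Among the healthy libraries the Itgal share is lowest and the Itgb2l share highest in bone marrow. Among the 5 conditions, read separately, the Itgal share is lowest and the Itgb2l share highest in the IL-1β lung.

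Other adhesion genes were taken from lists of related function. Among 13 of 16 selectins and ligand-building genes that were tested, 4 were higher and 1 lower in blood than in bone marrow (11.7% and 9.94% of all genes; median log2 change 0.05 against -0.02 over all genes). The sialyltransferases St3gal6 (2.60 ± 0.22, FDR 0.00211) and St3gal4 (1.61 ± 0.29, FDR 0.0116) and the glycosyltransferase Gcnt1 (1.75 ± 0.28, FDR 0.00768), which build the glycans that selectins bind, were higher, and Spn (CD43) was lower (-1.36 ± 0.32, FDR 0.0246; all log2, edgeR). Between low- and high-granule cells 4 were higher, St3gal6 by 4.16 ± 0.27 and Gcnt1 by 2.82 ± 0.30 among them, and 3 lower of 11 tested, where 24.1% and 20.7% of all genes were.

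Other integrin chains were mostly too low, with 7 of 21 tested and 2 called between blood and bone marrow, both higher in blood: Itgb7, a β chain that pairs with Itga4 (2.25 ± 0.49, FDR 0.0199), and Itgav (1.21 ± 0.34, FDR 0.0459, edgeR). Of 26 genes of integrin activation and linkage, all 26 were tested, 8 were higher and 1 lower in blood, beside 11.7% and 9.94% of all genes. The largest were Pip5k1c (1.53 ± 0.24, FDR 0.00736), a lipid kinase that acts with talin, the adaptor Fyb (1.42 ± 0.24, FDR 0.00936), the kinase Syk (1.28 ± 0.22, FDR 0.00962) and, lower, vinculin (Vcl, -1.31 ± 0.34, FDR 0.0362, edgeR).

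Of 12 tested immunoglobulin-family and other receptors, 1 was higher in blood, Alcam (1.98 ± 0.24, FDR 0.00405), and 2 lower, Vcam1 and Cd177 (-2.80 ± 0.63, FDR 0.0225, edgeR), beside 11.7% and 9.94% of all genes. Vcam1 was scarce, at 4.003 and 7.91 CPM in bone marrow, 4.09 and 7.67 CPM in spleen and 0 and 0.575 CPM in blood. It met the low-count filter through bone marrow and spleen alone, so its call had to differ. It is set aside, which leaves Cd177 as the lower gene. Monocyte and macrophage markers were also higher in bone marrow than in blood, as given above, and a link to Vcam1 was not tested. Cd177, a neutrophil surface protein that associates with Mac-1, was at 590 and 673 CPM in bone marrow and 257 and 62.1 CPM in blood. Of 4 tested linkers of membrane to actin, Ezr (1.10 ± 0.22, FDR 0.0164) and Msn (0.91 ± 0.23, FDR 0.0327, edgeR) were higher in blood.

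In the inflammation library, Itgb7 was at 59.6 CPM in healthy blood, 30.1 CPM in arthritic blood and 9.08 to 13.9 CPM at the 3 sites, past 2-fold lower at the sites on both scales. Rasgrp2, the exchange factor that activates Rap1 ahead of integrins, was at 216 and 192 CPM in the bloods, 44.0 CPM in the joint, 23.5 CPM in the lung and 59.4 CPM in the peritoneum. It was past 2-fold lower at the 3 sites on totals, and with TMM scaling in the joint (0.279) and lung (0.210) but not in the peritoneum (0.538). Sipa1, of the same list, was at 147 CPM in healthy blood, 18.2 CPM in the lung and 19.1 CPM in the peritoneum. It was past 2-fold lower in both on either scale (0.239 and 0.254 with TMM scaling). The fucosyltransferase Fut4 was at 23.1 CPM in healthy blood and 1.06 to 3.01 CPM at the sites, the lowest value being 1 UMI. Against these, Cd47 (370 CPM in healthy blood, 1453 CPM in the lung and 1042 CPM in the peritoneum) and Cd177 (44.5, 270 and 128 CPM) were past 2-fold higher in lung and peritoneum on both scales. Cd177 was at 17.6 CPM in the joint, past 2-fold lower on totals but not with TMM scaling (0.541). Cyth1, of the integrin activation list, was at 54.2 CPM in healthy blood and 209 CPM in the joint, past 2-fold higher on both scales (5.27 with TMM scaling). The galactosyltransferase B4galt1 was at 31.1 CPM in healthy blood, 80.6 CPM in the joint, 141 CPM in the lung and 42.4 CPM in the peritoneum. Its ratios to healthy blood were 2.59, 4.53 and 1.36 at these sites on totals and 3.55, 8.74 and 2.67 with TMM scaling, so that the peritoneum was past 2-fold on the TMM scale alone.

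Over the 11 library and condition sums, with the mean of each data set taken off, the genes whose log2 levels followed each member most closely among those with a mean of at least 50 CPM were as follows, up to 2 for each. Itga4 ran with Hist1h2bc (Pearson r = 0.987), Selplg with Gm26532 and Csf3r (both 0.995), Itgal with Lst1 (0.991) and Spi1 (0.988), and Cd44 with Tnfrsf1b (0.983) and Vmp1 (0.982). Icam1 ran with Map3k8 (0.985) and Bcl2a1a (0.979), Itgb2 with Wasf2 (0.977) and Rin3 (0.973), Itgax with Mir142hg and Metrnl (both 0.970), Itgb2l with Adpgk (0.961) and Cd177 (0.919), and Itgam with Rbm3 (0.818) and Vamp3 (0.802). Among the members, Itga4 and Selplg were closest (0.96), and Itgal and Itgb2l ran most strongly in opposite directions (-0.83). The 11 sums share mice, runs and a library, and these values are a description.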

How the data were processed

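Per the labels and the study's methods, the authors sorted neutrophils, made 10X Genomics droplet libraries, aligned reads to mm10 and counted UMIs with Cell Ranger. The deposited tables hold these counts per gene and cell, not normalized. By the study's methods, healthy tissues and experimental inflammation were prepared with different versions of the 10X chemistry. Levels in healthy libraries and in the inflammation library are therefore read separately. The inflammation conditions came from the authors' cell table.

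Counts were summed per library over kept cells (and per granule class with at least 20 cells) and tested with edgeR 4.0.16 (R 4.3.3), using TMM factors, its low-count filter, quasi-likelihood tests, Benjamini-Hochberg adjustment over all genes and the run as a block (the library for classes). By the study's methods, the same mice gave all 3 tissues within a run, and deviations from tissue means correlated between tissues of a run (r = 0.597, 0.631 and 0.550 over 7809 genes). DESeq2 1.42.0, other scalings, filters, cell limits, class limits and leaving out each library were alternatives. Inflammation ratios had exact intervals (scipy 1.17.1) for genes with at least 20 UMIs, with counts under 3 set to 3 for the TMM ratio and the 2-fold call.

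All 9 members are named. Other listed genes are named for the largest changes among those called, and for each member the 2 genes most alike, of which some are not reported here. Members and lists were chosen with earlier results of these data known. Scripts were tested on simulated data. Intervals cover counting error only.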

Additional observations from a re-analysis of the deposited data

Results flagged for a closer look

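The difference between low-granule and high-granule cells was not the same in the 3 tissues for Itga4 and for Itgb2l. By edgeR's test of the interaction of class and tissue, the FDR was 0.0189 for Itga4, whose rise in low-granule cells was larger in spleen than in bone marrow (by 2.06 on the log2 scale, FDR 0.014), while the difference of 1.99 between blood and bone marrow did not pass (FDR 0.0962). It was 3.22e-05 for Itgb2l, whose fall was steeper in blood and spleen than in bone marrow. The high-granule sums of blood and spleen in run 2 came from 34 and 63 cells. Each tissue had 2 libraries, too few for a test of single libraries within a tissue.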

How the results depend on the processing

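The 6 calls between low- and high-granule cells held in number when any library was left out (6 each time, of 1943 to 2497 genes called). Without the replicate block, which drops the pairing of tissues by run, 164 genes and 1 member were called between blood and bone marrow, 0 and 0 between spleen and bone marrow, 0 genes between blood and spleen, 0 and 0 between blood and bone marrow within low-granule cells, and 0 and 0 for the interaction of class and tissue. Over all deposited cells 0 genes and 0 members were called between blood and bone marrow and between spleen and bone marrow, and 0 genes between blood and spleen. The study's cell limits gave 116 genes and 2 members between spleen and bone marrow. DESeq2 called 28 genes between blood and spleen, 418 within low-granule cells, and 139 genes and 1 member for the interaction. Between blood and spleen, no low-count filter gave 18 genes, S100a8 and S100a9 at 10% gave 19, and at most 0.5% of UMIs from markers of other cell types gave 7. For the interaction, that marker limit gave 438 genes and 5 members, or 421 and 4 with erythroid genes not counted, and a class limit at 4% gave 1 member. The marker limit without erythroid genes, both Itgam rows added and library totals alone were chosen after seeing the data. Library totals alone gave 2 members and 153 genes between spleen and bone marrow, and 5 and 390 for the interaction. In arthritic against healthy blood, the study's cell limits, TMM scaling, S100a8 and S100a9 left out and the mean over cells each gave 1 member past 2-fold, and the mean over cells gave 2 in joint against arthritic blood. The causes were not tested.

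Leaving out 1 library gave 0 to 2626 genes and 0 to 6 members between blood and bone marrow, 0 to 1250 and 0 to 6 between spleen and bone marrow, 0 to 245 and 0 to 1 between blood and spleen, 300 to 1344 and 3 to 7 within low-granule cells, and 73 to 287 and 1 to 3 for the interaction. Directions changed for genes that had not passed. Itgb2 was -0.031 (study's limits) and -0.20 (marker limit) between blood and bone marrow, 0.13 between spleen and bone marrow (totals alone) and -0.13 between blood and spleen (marker limit). Between classes, Itgb2 was 0.057 (no filter), 0.018 (marker limit), 0.013 (erythroid genes not counted) and 0.12 (totals alone). Itgam was 0.49 (all deposited cells) and 0.041 (totals alone) between blood and spleen, and within low-granule cells Itgam was 0.081 and Itgb2 0.18 with totals alone. With 1 library left out, Itgb2 ranged from -0.15 to 0.33 between blood and bone marrow, -0.28 to 0.20 between spleen and bone marrow, -0.11 to 0.37 between blood and spleen and -0.14 to 0.094 between classes. Itgam ranged from -0.79 to 0.071, -0.71 to 0.15 and -0.43 to 0.28 in the same 3 tissue comparisons and from -0.60 to 0.094 within low-granule cells, and Icam1 from -0.58 to 0.083 between blood and spleen. Over single members in healthy tissues, 665 values under an alternative kept direction and call, 71 lost the call, 7 gained it and 25 changed direction.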

Other observations

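Of 26 genes of integrin activation and linkage, 13 were past 2-fold lower and 1 higher in the lung than in healthy blood on total UMIs, and 5 lower and 4 higher with TMM scaling. In the peritoneum 10 were lower and 1 higher on totals, and 4 lower and 7 higher with TMM scaling. Of 11 tested selectins and ligand-building genes, 2 were higher and 2 lower in the lung, and 6 higher and 1 lower with TMM scaling (median log2 ratio 0.14 and 1.09). Of 12 tested in the peritoneum, 1 was higher and 5 lower, and 5 higher and 1 lower with TMM scaling (median log2 ratio -0.058 and 0.909). Each condition was 1 pool, and 10.9% of all genes were past 2-fold higher and 49.3% lower in the lung on totals (22.4% and 21.7% with TMM scaling), and 10.2% and 51.8% in the peritoneum (21.5% and 22.5% with TMM scaling).

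Of the UMIs of Itga4 and Itgal together, Itga4 made up 7.79% (run 1) and 9.94% (run 2) for bone marrow cells, 21.2% (run 1) and 22.6% (run 2) for blood cells and 15.3% (run 1) and 25.1% (run 2) for spleen cells. In the inflammation library, taken separately, it made up 37.0% in healthy blood, 31.3% in arthritic blood, 15.0% in the joint, 21.0% in the lung and 11.3% in the peritoneum.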
